A study of Mus musculus with 17 samples.

Results

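The genes described here encode the enzymes that make serine and pass its carbon to folate: 9 genes chosen by symbol in the platform annotation, among 19938 genes tested. They are Phgdh, Psat1 and Psph of serine synthesis, the serine hydroxymethyltransferase genes Shmt1 and Shmt2, the cytosolic folate gene Mthfd1, and the mitochondrial folate genes Mthfd2, Mthfd1l and Aldh1l2. Each was measured by 1 singly named probe set. A further Phgdh probe set shared with the predicted gene Gm6756 was not used.

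RNA came from 3134 cells, a mouse mammary line labelled epithelial, in 4 derivatives that all carry a tetracycline-regulated transactivator, and was hybridized to 17 Affymetrix Mouse Gene 1.0 ST arrays. In 3 derivatives, withdrawal of tetracycline induces the transactivator together with a stably integrated Flag-tagged dominant-negative (dn) form of a chromatin remodeler: dnBrg1 (gene Smarca4), dnChd4 or dnSnf2h (gene Smarca5). In the control line, 3134Tet, it induces the transactivator alone. Stocks were kept in 5 µg/ml tetracycline, and cells were then plated for 48 h in medium with charcoal-dextran-treated serum, without the drug (induced) or with it (repressed). There were 2 induced and 2 repressed arrays for each of the dnBrg1, dnChd4 and dnSnf2h lines, and 3 induced and 2 repressed arrays for the control line. The labels do not say how many clones each line represents, or whether replicates came from separate cultures. P-values therefore measure only the spread between these arrays, which may be technical.

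Serine is made from a glycolytic intermediate by PHGDH, PSAT1 and PSPH in turn. Serine hydroxymethyltransferases then split it into glycine and a carbon unit on tetrahydrofolate, SHMT1 in the cytosol and SHMT2 in mitochondria. In mitochondria MTHFD2 oxidizes that unit, MTHFD1L releases it as formate and ALDH1L2 can oxidize it to carbon dioxide, while cytosolic MTHFD1 takes formate back for purine and thymidylate synthesis. Proliferating cells depend on this route for nucleotides, and in mammalian cells the transcription factor ATF4 is known to activate many of its genes.

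Values are log2 signals, and a change is the difference of group means, so that -1 stands for a fall to 50% of the signal. A gene was called when its limma p, adjusted by the Benjamini-Hochberg method over all 19938 genes, was under 0.05. The Chd4 probe set read 12.27 on both induced dnChd4 arrays, against 10.35 and 10.56 on the repressed ones, while Smarca4 in the dnBrg1 line and Smarca5 in the dnSnf2h line were not called, so only the dnChd4 labels are checked by their own gene. Of the epithelial markers, Epcam lay under 4.77, the level that bounds the dimmest 30% of genes, on every array, with Krt8 between 5.81 and 6.62 and Cdh1 between 5.04 and 5.48. The collagen gene Col1a2 read between 10.90 and 12.65, and the leukocyte gene Ptprc and the adipocyte gene Adipoq were under 4.77 throughout. Other markers of the same cell types differed from these. The macrophage marker Lyz2 read between 4.54 and 7.59, the adipocyte marker Plin1 between 5.90 and 6.32, and the fibroblast markers Dcn and Lum were under 4.77 throughout. Under that level on every array were 1 of 8 epithelial, 2 of 8 fibroblast, 5 of 8 macrophage and 2 of 6 adipocyte markers. In bulk RNA of this kind, fewer cells of a type and less RNA per cell cannot be told apart.

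The control arrays went against their labels, and every result that uses them is given with this in view. Across genes, repressed control replicate 1 was nearest to induced control replicate 2 (r = 0.995), and induced control replicate 1 and repressed control replicate 2 were nearest to each other (r = 0.994). The 9 genes split the same way, with a within-group SD between 0.41 and 1.70 in the control groups and between 0.00 and 0.30 in the dn groups. The dn comparisons were therefore fitted on the 12 arrays of the dn lines, so that the control arrays did not enter the spread. Fitted on all 17 arrays, the same differences gave 0 calls among the 9 genes in any single dn line, where 0.16% of all genes in dnBrg1 and 0.00502% in each of dnChd4 and dnSnf2h were called lower.

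Promoter sequence is shown for 3 genes that were called lower in every dn line and whose printed windows differ in a sequence feature. A link between that feature and the fall was not tested. RefSeq's table (GRCm38.p6) held a window of 250 bases before to 50 after the transcription start for 8 of the 9 genes, and for Psat1 it held 2 windows. Aldh1l2 had none there. The windows below lie at chr19:15925010-15925309 for Psat1, chr6:83317555-83317854 for Mthfd2 and chr10:127522395-127522694 for Shmt2, all on the minus strand and written 5′ to 3′. Capitals mark CCAAT or its reverse complement ATTGG, the box bound by the factor NF-Y.
Psat1: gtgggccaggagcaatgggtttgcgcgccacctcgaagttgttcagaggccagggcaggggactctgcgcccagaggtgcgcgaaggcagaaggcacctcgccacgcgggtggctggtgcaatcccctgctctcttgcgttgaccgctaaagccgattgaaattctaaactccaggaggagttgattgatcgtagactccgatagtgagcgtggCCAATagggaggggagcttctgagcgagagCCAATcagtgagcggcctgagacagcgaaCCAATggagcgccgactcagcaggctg
Mthfd2: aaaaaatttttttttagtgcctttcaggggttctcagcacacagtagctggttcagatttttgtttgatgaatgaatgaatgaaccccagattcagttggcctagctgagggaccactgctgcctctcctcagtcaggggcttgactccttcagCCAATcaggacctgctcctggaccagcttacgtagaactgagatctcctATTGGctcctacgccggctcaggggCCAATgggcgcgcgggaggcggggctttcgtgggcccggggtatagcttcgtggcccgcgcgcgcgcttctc
Shmt2: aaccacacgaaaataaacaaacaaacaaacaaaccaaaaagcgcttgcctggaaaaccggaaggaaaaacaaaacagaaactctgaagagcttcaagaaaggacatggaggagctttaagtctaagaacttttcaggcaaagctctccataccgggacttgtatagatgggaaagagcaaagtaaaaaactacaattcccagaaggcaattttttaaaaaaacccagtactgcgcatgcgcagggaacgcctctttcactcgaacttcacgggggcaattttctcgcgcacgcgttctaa
The windows printed for Psat1 and Mthfd2 each held 3 such matches, and that of Shmt2 held 0. The other Psat1 window, at chr19:15924573-15924872 on the minus strand, also held 0. Over the 8 genes, 6 had at least 1 match, with 2 each in Phgdh and Psph, 1 each in Shmt1 and Mthfd1, and 0 in Mthfd1l. Of all genes in the table, 41.1% had the motif in at least 1 window, and of all windows 37.4%. The ATF4 motif searched, TGATGNAA on either strand, was in 0 of the 8 genes (4.51% of all genes), and the E-box CACGTG was also in 0 of 8 (8.09% of all genes). No searched motif overlaps another. These are matches of letters in short windows, and the absence of a match covers these windows alone.

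Across the dn lines, the serine and one-carbon genes fell together on induction. All 9 were called lower in dnChd4 and in dnSnf2h, and 6 of 9 in dnBrg1, with 0 called higher in any of the 3 lines. Among all genes tested, 6.82% were called lower and 11.2% higher in dnChd4, 8.34% and 9.2% in dnSnf2h, and 6.22% and 8.01% in dnBrg1. The balance over all genes moved with the scaling, since with each array centred on its median 769 genes were called lower and 1955 higher in dnBrg1, against 1241 and 1598 without it. The median change of the 9 genes was -0.996 in dnChd4, -1.16 in dnSnf2h and -0.43 in dnBrg1, where the median over all genes was -0.03, -0.01 and -0.03. Induced arrays lay wholly below repressed arrays in 26 of the 27 gene and line pairs, a pattern shown by 32.9% of all genes in dnChd4, 24.1% in dnSnf2h and 29.9% in dnBrg1. In the mean of the 3 lines all 9 were called lower, against 13.6% of all genes. Psat1, Shmt2, Mthfd1, Mthfd2, Mthfd1l and Aldh1l2 were called lower in each of the 3 lines, which held for 3.06% of genes.

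**Figure D1:**
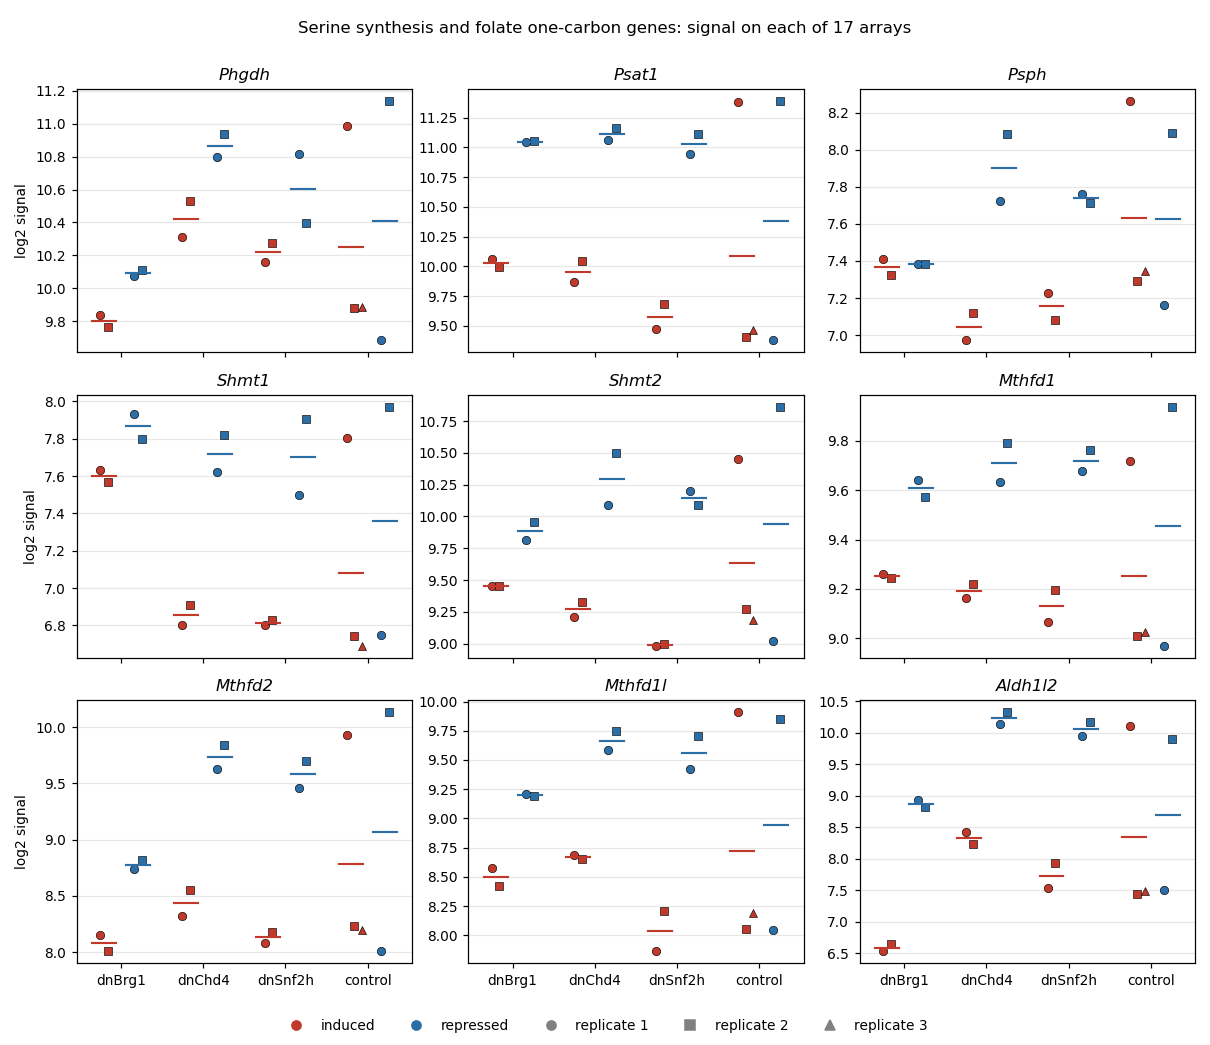
Log2 signal of each of the 9 genes on each of the 17 arrays, with induced arrays in red left of repressed arrays in blue, one marker shape per replicate number and a bar at the group mean. In the dn lines the induced arrays lie below the repressed ones except for Psph in dnBrg1, while in the control line each label holds both high and low arrays.

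Aldh1l2, the mitochondrial enzyme that oxidizes 10-formyltetrahydrofolate to carbon dioxide, showed the largest change of the 9 genes in every dn line. Induced dnBrg1 arrays read 6.53 and 6.65, against 8.94 and 8.82 in repressed dnBrg1 arrays. Induced dnChd4 arrays read 8.42 and 8.23, against 10.15 and 10.33 repressed, and induced dnSnf2h arrays read 7.54 and 7.93, against 9.95 and 10.17 repressed. Every induced array was thus below every repressed array of its line, by a gap far wider than that between replicates, and the dnBrg1 line ran lower than the others in both states. Aldh1l2 fell, with a change of -2.29 in dnBrg1 (SE 0.131, 4.89-fold; limma adjusted p = 1.29e-07), -1.91 in dnChd4 (3.76-fold; adjusted p = 3.77e-07) and -2.33 in dnSnf2h (5.02-fold; adjusted p = 1.06e-07).

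Mthfd2, the mitochondrial dehydrogenase and cyclohydrolase, and Mthfd1l, the mitochondrial formate-releasing synthetase, also fell in each line. Mthfd2 read 8.15 and 8.01 in induced dnBrg1 arrays against 8.74 and 8.82 repressed, 8.32 and 8.55 in induced dnChd4 arrays against 9.62 and 9.84 repressed, and 8.08 and 8.18 in induced dnSnf2h arrays against 9.46 and 9.70 repressed. The induced values of the 3 lines lay close together, whereas the repressed values were lower in dnBrg1 than in the other lines. The change of Mthfd2 was -0.69 in dnBrg1 (SE 0.117; limma adjusted p = 0.00104), -1.30 in dnChd4 (adjusted p = 4.16e-06) and -1.45 in dnSnf2h (adjusted p = 2.32e-06). Mthfd1l read 8.58 and 8.42 in induced dnBrg1 arrays against 9.21 and 9.19 repressed, 8.69 and 8.65 in induced dnChd4 arrays against 9.58 and 9.75 repressed, and 7.86 and 8.21 in induced dnSnf2h arrays against 9.42 and 9.70 repressed. Here the induced dnSnf2h arrays were the lowest of the 12. Its change was -0.70 in dnBrg1 (SE 0.125; limma adjusted p = 0.00154), -0.996 in dnChd4 (adjusted p = 6.42e-05) and -1.53 in dnSnf2h (adjusted p = 2.41e-06).

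Of the hydroxymethyltransferases, mitochondrial Shmt2 was called in every dn line and cytosolic Shmt1 in dnChd4 and dnSnf2h. Shmt2 read 9.45 and 9.46 in induced dnBrg1 arrays against 9.82 and 9.96 repressed, 9.21 and 9.33 in induced dnChd4 arrays against 10.09 and 10.50 repressed, and 8.982 and 8.996 in induced dnSnf2h arrays against 10.20 and 10.09 repressed. No induced array overlapped a repressed one of its line. Shmt2 changed by -0.43 in dnBrg1 (SE 0.120; limma adjusted p = 0.0242), by -1.02 in dnChd4 (adjusted p = 3.64e-05) and by -1.16 in dnSnf2h (adjusted p = 1.88e-05). The dnBrg1 call rested on 3 arrays of that line: without repressed replicate 2, induced replicate 1 or induced replicate 2 the change was between -0.44 and -0.36 and the adjusted p between 0.127 and 0.175. Shmt1 read 7.63 and 7.57 in induced dnBrg1 arrays against 7.93 and 7.80 repressed, 6.80 and 6.91 in induced dnChd4 arrays against 7.62 and 7.82 repressed, and 6.80 and 6.83 in induced dnSnf2h arrays against 7.50 and 7.91 repressed. Induced dnBrg1 arrays kept a higher level than those of the other dn lines. Shmt1 changed by -0.87 in dnChd4 (SE 0.124; limma adjusted p = 0.000191) and by -0.89 in dnSnf2h (adjusted p = 0.00018). In dnBrg1 its change was -0.27, with a 95% interval from -0.53 to -0.00 (adjusted p = 0.193), although its induced arrays also lay below the repressed ones.

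Mthfd1, the cytosolic enzyme with 3 folate activities in 1 protein, changed by less than each of the 4 mitochondrial genes in every dn line. Its induced arrays read between 9.06 and 9.26 over the dn lines and its repressed arrays between 9.57 and 9.79, so that the states did not overlap across any of the 12 arrays. The fall of Mthfd1 was called in each line, at -0.35 in dnBrg1 (SE 0.0951; limma adjusted p = 0.0204), -0.52 in dnChd4 (adjusted p = 0.00123) and -0.59 in dnSnf2h (adjusted p = 0.000554). Leaving out any 1 of the 4 dnBrg1 arrays ended the dnBrg1 call, with a change between -0.39 and -0.32 and an adjusted p between 0.0588 and 0.134.

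Among the serine synthesis genes, Psat1, the aminotransferase of the second step, fell in all 3 dn lines, while Phgdh and Psph were called in dnChd4 and dnSnf2h. Psat1 read 10.07 and 10.00 in induced dnBrg1 arrays against 11.04 and 11.05 repressed, 9.87 and 10.04 in induced dnChd4 arrays against 11.06 and 11.17 repressed, and 9.47 and 9.68 in induced dnSnf2h arrays against 10.95 and 11.12 repressed. Its repressed values were near one another in the 3 lines. Psat1 changed by -1.02 in dnBrg1 (SE 0.105, 2.02-fold; limma adjusted p = 2.25e-05), -1.16 in dnChd4 (2.23-fold; adjusted p = 4.21e-06) and -1.46 in dnSnf2h (2.74-fold; adjusted p = 8.71e-07).

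Psph, the phosphatase of the last step, was called lower in dnChd4 and dnSnf2h. It read 7.41 and 7.32 in induced dnBrg1 arrays against 7.38 and 7.38 repressed, 6.97 and 7.12 in induced dnChd4 arrays against 7.72 and 8.08 repressed, and 7.23 and 7.08 in induced dnSnf2h arrays against 7.76 and 7.71 repressed. In dnBrg1 the induced arrays thus bracketed the repressed ones, and in the other lines they lay below. Psph changed by -0.86 in dnChd4 (SE 0.116; limma adjusted p = 0.000116) and -0.58 in dnSnf2h (adjusted p = 0.00248). In dnBrg1 its change was -0.02, with a 95% interval from -0.26 to 0.23 (adjusted p = 0.96).

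Phgdh, the dehydrogenase of the first committed step, had the smallest mean change of the 9 genes, -0.37 over the 3 dn lines. It read 9.84 and 9.77 in induced dnBrg1 arrays against 10.07 and 10.11 repressed, 10.31 and 10.53 in induced dnChd4 arrays against 10.80 and 10.93 repressed, and 10.16 and 10.28 in induced dnSnf2h arrays against 10.82 and 10.40 repressed. The induced arrays were below the repressed ones in each line, but in dnSnf2h by a narrow gap to 1 repressed array. Phgdh changed by -0.45 in dnChd4 (SE 0.127; limma adjusted p = 0.0228) and by -0.39 in dnSnf2h (adjusted p = 0.0483), and its change in dnBrg1 was -0.29 with a 95% interval from -0.56 to -0.02 (adjusted p = 0.161). In dnChd4 the call was lost without repressed replicate 1, repressed replicate 2 or induced replicate 1 (changes between -0.52 and -0.34, adjusted p between 0.0509 and 0.243). In dnSnf2h it was lost in 11 of the 12 fits that left out 1 array, the fit without dnSnf2h repressed replicate 2 being the exception, and the change without dnSnf2h repressed replicate 1 was -0.18.

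**Figure D2:**
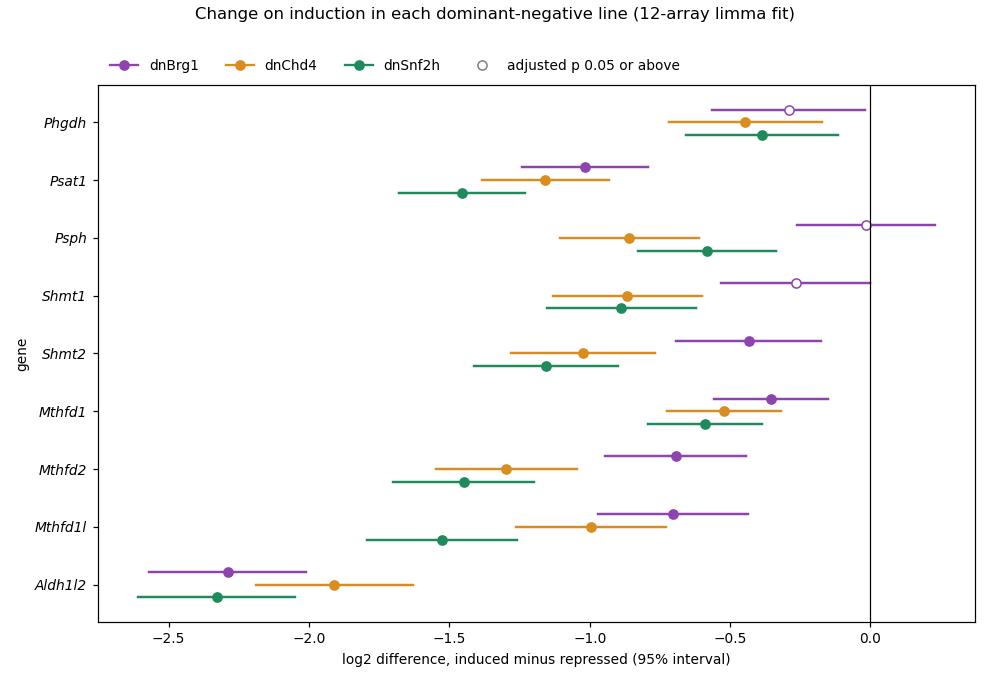
Change on induction (log2, induced minus repressed) of each gene in the dnBrg1, dnChd4 and dnSnf2h lines, with 95% intervals from the limma fit of 12 arrays and open symbols where the adjusted p was 0.05 or above. Points lie left of 0 throughout, and Aldh1l2 has the largest changes, between -2.33 and -1.91.

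The changes were compared directly between lines. For dnBrg1 minus dnChd4, Psph alone was called, with a difference of 0.84 (95% interval from 0.49 to 1.19; limma adjusted p = 0.0174), where 0.281% of all genes were called higher and 0.993% lower. That call was lost without any 1 of the 4 dnBrg1 arrays, dnChd4 repressed replicate 2 or dnChd4 induced replicate 1, with differences between 0.66 and 0.88. The other differences ran from -0.38 for Aldh1l2 to 0.60 for Mthfd2 (95% interval from 0.25 to 0.96; adjusted p = 0.115). For dnBrg1 minus dnSnf2h all 9 differences were positive, from 0.04 for Aldh1l2 to 0.82 for Mthfd1l, and limma called 0 of 9 where 0.291% of all genes were called higher and 0.341% lower. Of these 9, 6 had an unadjusted p under 0.05, as had 2001 of all 19938 genes, and the nearest to the threshold were Mthfd1l (95% interval from 0.45 to 1.20; adjusted p = 0.0511), Mthfd2 at 0.75 (adjusted p = 0.0587) and Shmt2 at 0.72 (adjusted p = 0.0836). For dnChd4 minus dnSnf2h limma also called 0 of 9 (0.125% of all genes higher and 0.00502% lower), with 2 at an unadjusted p under 0.05 where 1482 of all 19938 genes had one, Mthfd1l at 0.53 (95% interval from 0.15 to 0.91) and Aldh1l2 at 0.42 (from 0.02 to 0.82). Missing the threshold does not show that the lines responded alike. The 3 comparisons share arrays pairwise.

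Before induction the lines already differed in these genes. In repressed cells 6 of 9 were lower in dnBrg1 than in dnChd4, where 6.35% of all genes were called lower. Aldh1l2 differed by -1.36 (SE 0.131; limma adjusted p = 7.72e-06), Mthfd2 by -0.95 (adjusted p = 7.25e-05), Phgdh by -0.77 (adjusted p = 0.000763), Psph by -0.52, Mthfd1l by -0.46 and Shmt2 by -0.41 (adjusted p between 0.00652 and 0.0341). The Psph call was lost without dnChd4 repressed replicate 2 (-0.34). The Mthfd1l call was lost without dnBrg1 repressed replicate 1 or 2 or dnChd4 repressed replicate 2 (from -0.47 to -0.38), and the Shmt2 call without any 1 of the 4 dnBrg1 arrays or dnChd4 repressed replicate 2 (from -0.48 to -0.20). Psat1, Mthfd1 and Shmt1 differed by -0.07, -0.11 and 0.15 and were not called. Against repressed dnSnf2h arrays, repressed dnBrg1 arrays were lower for Aldh1l2 (-1.18; limma adjusted p = 3.21e-05), Mthfd2 (-0.80; adjusted p = 0.000346) and Phgdh (-0.51; adjusted p = 0.0137), 3 of 9 where 6.72% of all genes were called lower. The Phgdh call was lost without dnBrg1 repressed replicate 1 or 2 or dnSnf2h repressed replicate 1, where the difference was between -0.53 and -0.30. Between repressed dnChd4 and dnSnf2h arrays limma called 0 of the 9, with 0 at an unadjusted p under 0.05 and 0.01% of all genes called lower, and the differences ran from -0.01 to 0.26. The count over all genes rested on 1 array, with 284 genes called lower and 216 higher without dnSnf2h repressed replicate 1, where 0 of the 9 were called. Across genes, both repressed dnSnf2h arrays correlated best with a repressed dnChd4 array (r = 0.997 and 0.994) rather than with each other.

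The order of levels over the 8 groups followed from these differences. Repressed dnChd4 arrays had the highest mean for 7 of the 9 genes, repressed dnBrg1 arrays for Shmt1 and repressed dnSnf2h arrays for Mthfd1. The lowest mean was that of induced dnSnf2h arrays for Psat1, Shmt1, Shmt2, Mthfd1 and Mthfd1l, of induced dnBrg1 arrays for Phgdh, Mthfd2 and Aldh1l2, and of induced dnChd4 arrays for Psph. Repressed dnChd4 and dnSnf2h arrays were neighbours that overlapped for 8 of the 9 genes, and for Psat1 repressed dnBrg1 arrays lay between them. Repressed dnBrg1 arrays lay below both without overlap for Phgdh, Psph, Shmt2, Mthfd2, Mthfd1l and Aldh1l2. For Phgdh and Aldh1l2 the induced arrays also stood apart, dnChd4 above dnSnf2h above dnBrg1. Neither control group was highest or lowest for any gene, and both overlapped their neighbours, each holding high and low arrays.

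In the control line all 9 genes were high on the same 2 arrays, one from each label. Aldh1l2 read 10.12, 7.44 and 7.50 on the libraries labelled control induced, against 7.50 and 9.91 on those labelled control repressed. Psat1 read 11.38, 9.41 and 9.46 on those labelled induced, against 9.38 and 11.39 on those labelled repressed. Mthfd2 read 9.93, 8.23 and 8.20 labelled induced, against 8.01 and 10.13 labelled repressed. The labels thus did not separate the values, and no gene of the 9 had its control groups apart, while 7.73% of all genes had induced arrays wholly below repressed ones. As labelled, limma on 17 arrays called 0 of the 9 (0% of all genes, with 845 genes at an unadjusted p under 0.05), and the changes ran from -0.35 for Aldh1l2 (SE 0.714) to 0.01 for Psph.

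Without repressed control replicate 1 and induced control replicate 1, all 9 genes were lower in the 2 induced arrays than in the 1 repressed array left, and limma on 15 arrays called all 9, where 11.2% of all genes were called lower. The changes then ran from -2.44 for Aldh1l2 and -1.95 for Psat1 to -0.77 for Psph. The 2 arrays were left out because of their expression values, and they differed the other way, induced replicate 1 being above repressed replicate 1 for all 9 genes. The direction with 15 arrays therefore follows from which arrays were left out. Each dn induction was also set against that of the control, comparisons that share the control arrays. With 17 arrays the median difference of the 9 genes was -0.15 for dnBrg1, -0.77 for dnChd4 and -0.85 for dnSnf2h, with 0 called in each (0.0351%, 0.00502% and 0% of all genes called lower, and 1131, 771 and 1121 genes at an unadjusted p under 0.05). With 15 arrays the medians were 0.96, 0.61 and 0.37 for dnBrg1, dnChd4 and dnSnf2h, and 8, 1 and 1 genes were called higher (2.93%, 0.507% and 0.682% of all genes). The changes of the dn lines are changes on tetracycline withdrawal. Effects of the remodeler form, of the transactivator and of tetracycline itself cannot be told apart with these control arrays.

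Genes around the pathway were described in 6 lists of 58 genes, 51 of them measured. In the mean of the 3 dn lines 15 of the 51 were called lower and 13 higher, where 13.6% and 16.8% of all genes were called. Serine and glycine transport had 4 of 9 lower and 0 higher: the glycine transporter gene Slc6a9 changed by -1.49, the neutral amino acid transporter genes Slc1a5 and Slc1a4 by -1.37 and -1.03 (limma adjusted p between 6.88e-10 and 1.45e-08). Of 9 other folate enzyme genes, 5 were lower and 0 higher, with the purine synthesis genes Gart at -0.87 and Atic at -0.60 and the thymidylate synthase gene Tyms at -0.60. The list median was -0.24 for these enzymes and -0.16 for the transport genes, against -0.03 over all genes.

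Of the remaining lists, only serine use in lipids had a median away from that over all genes (-0.03). Glycine and serine breakdown lay at -0.03, the methionine cycle list at 0.01 and folate uptake and retention at -0.04. In the mean of the 3 dn lines 13.6% of all genes were called lower and 16.8% higher. Serine use in lipids had 8 of 9 genes higher and 0 lower in the mean, with a median of 0.34: Serinc3 and Serinc5, named for incorporation of serine into membranes, rose by 0.82 and 0.77, and Sptlc2, a subunit of serine palmitoyltransferase, by 0.34. By line, 3 of 9 were called higher in dnBrg1, 7 in dnChd4 and 3 in dnSnf2h (8.01%, 11.2% and 9.2% of all genes). Sptlc2 was not called in dnBrg1 (0.13). In the mean, 1 of 9 glycine and serine breakdown genes was higher, the serine racemase gene Srr at 1.05 (limma adjusted p = 7.24e-09). Another 2 were lower, Gcsh of the glycine cleavage system at -0.32 and the sarcosine dehydrogenase gene Sardh at -0.30. Sardh was called lower in dnBrg1 (-0.88), and its changes of 0.16 in dnChd4 and -0.18 in dnSnf2h were not called. Gcsh was called lower in dnSnf2h (-0.66), and its changes of -0.12 in dnBrg1 and -0.17 in dnChd4 were not called. In the mean, folate uptake and retention had 2 of 7 higher, the proton-coupled folate transporter gene Slc46a1 at 0.61 and the hydrolase gene Ggh at 0.41. From the same list 3 were lower, among them the reduced folate carrier gene Slc19a1 at -0.44. By line, Ggh was not called in dnChd4 (0.29), nor Slc19a1 in dnBrg1 (-0.13). In the methionine cycle and transsulfuration 2 of 8 were higher in the mean, Ahcyl2 at 0.70 and Mat1a at 0.34 from a dim level, and 1 was lower, Mat2b at -0.21. Mat1a was called in dnBrg1 (0.64) and not in dnChd4 (0.17) or dnSnf2h (0.22). Mat2b was called in no single line.

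**Figure D3:**
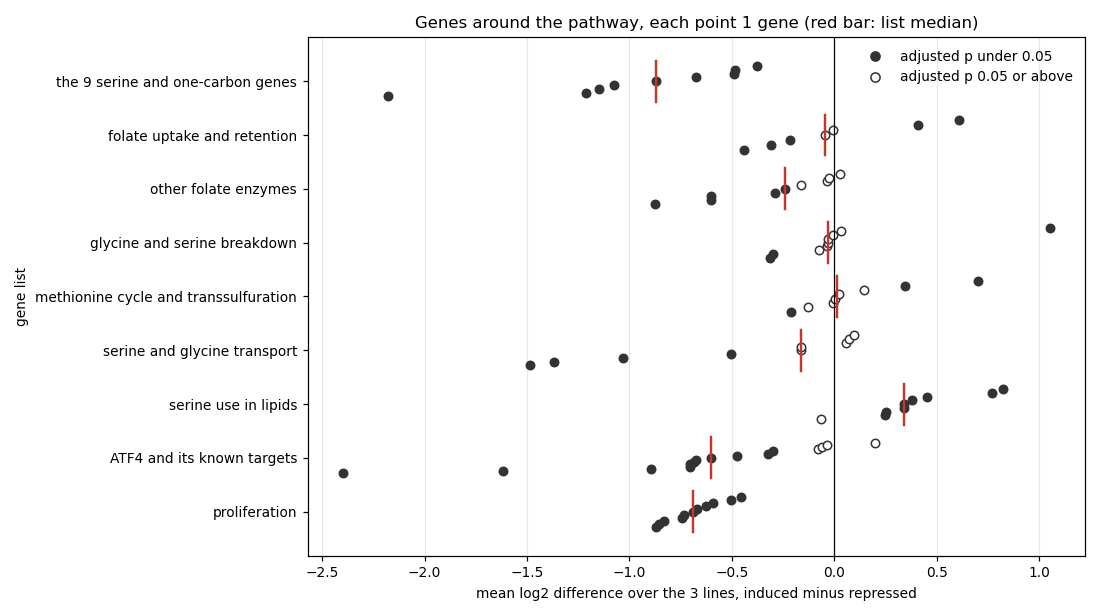
Mean change on induction over the 3 dn lines (log2), 1 point per gene, by list, with filled points where the limma adjusted p was under 0.05 and a red bar at each list's median. The 9 serine and one-carbon genes lie left of 0 with a median of -0.87, and the genes of serine use in lipids lie mostly right of 0 with a median of 0.34.

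Lists of ATF4 targets and proliferation genes moved in the same direction as the 9 genes. Of 15 genes that are ATF4 or its known targets outside one-carbon metabolism, 11 were lower and 0 higher in the mean of the dn lines. Of all genes, 13.6% were called lower and 16.8% higher in that mean. The list median was -0.60, led by the cystine transporter gene Slc7a11 (-2.40), Trib3 (-1.62) and Atf5 (-0.89). By line, 5 were lower and 1 higher in dnBrg1, and 11 lower and 0 higher in both dnChd4 and dnSnf2h. Over all genes 6.22% were lower and 8.01% higher in dnBrg1, 6.82% and 11.2% in dnChd4, and 8.34% and 9.2% in dnSnf2h. The log2 of the list's summed signal was 13.21 to 13.30 in induced dnBrg1 arrays against 13.50 to 13.54 repressed, 13.17 to 13.27 in induced dnChd4 arrays against 13.83 to 14.04 repressed, and 12.89 to 12.93 in induced dnSnf2h arrays against 13.78 to 13.80 repressed. Signals were summed on the linear scale, so the brightest genes weigh most. Here these were Asns, Slc3a2 and Slc7a5, with median log2 signals of 11.9, 11.1 and 10.7. In the mean of the dn lines all 11 proliferation genes were lower, where 13.6% of all genes were, with a median of -0.69. Tk1 was at -0.87, Top2a at -0.83 and Mcm5 at -0.74. By line, 9 of the 11 proliferation genes were called lower in dnBrg1, and 11 in both dnChd4 and dnSnf2h. Their summed signal was 12.67 to 13.06 over all induced dn arrays, against 13.49 to 13.60 over all repressed ones. In the control line both sums varied within a label: the proliferation sum was 12.18 to 13.56 on arrays labelled induced and 12.15 to 13.62 on those labelled repressed. The part of ATF4 activity or of proliferation in the fall of the 9 genes was not tested.

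Markers of other cell types moved less evenly. Of 8 fibroblast markers, 3 were lower and 0 higher in the mean of the dn lines, where 13.6% and 16.8% of all genes were. In dnBrg1 4 were lower and 0 higher (6.22% and 8.01% of all genes), with Col1a2 at -0.79. In dnSnf2h 2 were lower and 0 higher (8.34% and 9.2%), with Col1a2 at -0.59. In dnChd4 0 were lower and 1 higher (6.82% and 11.2%), the collagen gene Col1a1 at 0.68 (limma adjusted p = 0.00566). The summed signal was 11.36 to 11.45 in induced dnBrg1 arrays against 12.08 to 12.26 repressed. It was 12.57 to 12.67 in induced dnChd4 arrays against 12.74 to 12.93 repressed, and 12.09 to 12.39 in induced dnSnf2h arrays against 12.77 to 12.81 repressed, and Dcn and Lum were dim on every array. Col1a2, at 10.90 to 12.65, weighed most in this sum, and the next brightest gene, Pdgfrb, read 7.66 to 9.56. Of 8 macrophage markers 5 were dim on every array, and in the mean the lysozyme gene Lyz2 rose by 1.48 and Cd14 fell by 0.37. By line, Lyz2 was called higher in each dn line and Cd14 lower in dnSnf2h alone (-0.70). Cd68 was called in opposite directions, -0.48 in dnBrg1 and 1.03 in dnChd4. Of 8 epithelial markers, Krt7 rose by 0.25 and Cldn4 fell by 0.23, and 0 of 6 adipocyte markers were called in the mean. By line, Krt7 was called in dnSnf2h alone (0.43) and Cldn4 in no single line. The part of these cell types in the changes of the 9 genes was not tested.

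The 9 genes varied together over arrays, to differing degrees. Over the 36 pairs and 17 arrays Pearson's r ran from 0.48 for Shmt1 and Phgdh to 0.98 for Mthfd1 and Psat1, with a median of 0.86. Within the 12 dn arrays it ran from 0.02 to 0.98 for the same pairs, with a median of 0.83. These arrays share the line and the tetracycline state, so the coefficients describe these arrays and carry no p. Among the dn lines, Phgdh had its lowest mean of each state in dnBrg1, where Shmt1 had its highest.

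**Figure D4:**
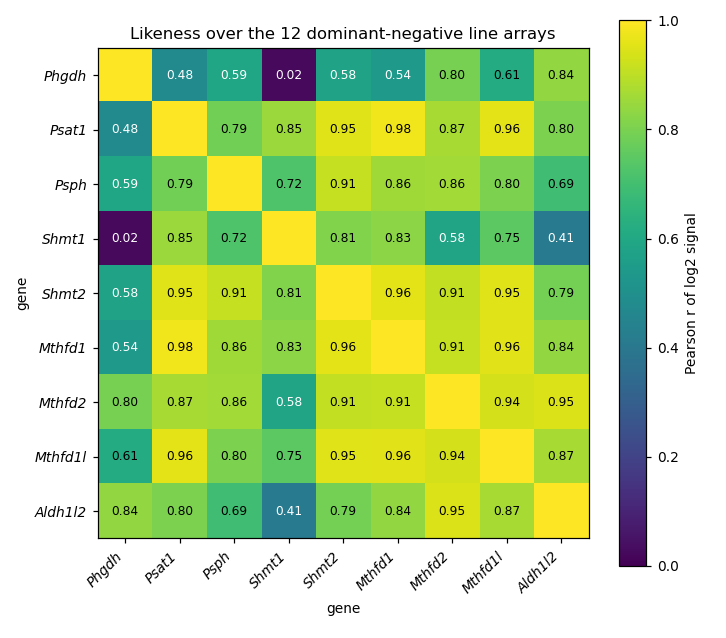
Pearson's r of log2 signal for each pair of the 9 genes over the 12 arrays of the dn lines, on a colour scale from 0 to 1. Psat1, Shmt2, Mthfd1 and Mthfd1l form a block with r of 0.95 or more, and the lowest value, 0.02, is that of Phgdh with Shmt1.

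Among the other genes, those whose pattern over the 17 arrays was most like each member were named by the highest r. For Psat1 they were Rcc2 (r = 0.994), Dkc1 and Srsf2, and for Mthfd1 they were Mybbp1a (r = 0.992), Rcc2 and Nup43. Mthfd1l was closest to the transporter gene Slc6a9 (r = 0.991), Thyn1 and Xpot, and Aldh1l2 to Zadh2 (r = 0.983), Slc7a11 and Pck2. Shmt2 was closest to Tmem97 (r = 0.979), Tomm40 and the cysteinyl-tRNA synthetase gene Cars, Mthfd2 to Phb2 (r = 0.980), Trim35 and Ftsj3, and Shmt1 to Pa2g4 (r = 0.982), Ivns1abp and Gja1. The closest genes were less alike for Psph, with Lonp1 at r = 0.945, Ddit4 and Chac1, and for Phgdh, with Cip2a at r = 0.943, Herpud1 and Smc4.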

How the data were processed

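The study used 17 Affymetrix Mouse Gene 1.0 ST arrays. The deposited table holds 1 log2 value per probe set and array, judged from its values (2.02 to 14.86, array medians 5.48 to 5.63), and was made by the authors with Affymetrix Expression Console per the submitters' processing notes. The normalization, the build and the tool's version are not given in the sources here. The log2 values were used without further scaling. Arrays give no read depth, so their number limits the precision.

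Of 35557 probe sets, 21789 had 1 symbol, 1621 several and 12147 none, and 21698 were found in the RefSeq gene table. The probe set with the highest mean was kept for 999 genes with several, which left 19938. Group means were fitted by lmFit, contrasts.fit and eBayes of limma 3.58.1 in R 4.3.3, on the 12 dn arrays or, for 4 of the 14 comparisons, on 17. The script was tested on simulated data.

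Groups came from the sample titles. All 9 genes, up to 3 list genes with the smallest adjusted p in the mean of the dn lines, any with opposite calls between lines, and the 3 most alike genes (mean above 4.77) were named. The 16 lists held 124 genes, 116 of them measured. The members, lists, motifs and the choice of 12 arrays were made with earlier results of these data known. Deviations of same-numbered replicates correlated with r from -0.39 to 0.31 over 15 pairs of dn groups, 3 above 0.1. Between the induced and repressed groups of 1 line, r was 0.02 in dnBrg1, 0.14 in dnChd4 and 0.31 in dnSnf2h. No pairing was used in the main fits. Alternatives were fits of 17 or 15 arrays or 1 line, the replicate block, trended robust eBayes, no dim genes, quantile normalization, median centring, all probe sets and each array left out.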

Additional observations from a re-analysis of the deposited data

Results flagged for a closer look

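Psph stood out because its response differed between 2 lines in a test of the difference itself. The dnBrg1 induction minus the dnChd4 induction was 0.84 (95% interval from 0.49 to 1.19; limma adjusted p = 0.0174 in the fit of 12 arrays). That call was lost in 6 of the 12 fits that left out 1 array, with differences between 0.66 and 0.88. It was also lost with all probe sets and with 17 arrays. The repressed level of Psph also differed, at 7.38 in dnBrg1 and 7.90 in dnChd4. This call too was lost without dnChd4 repressed replicate 2, where the difference was -0.34. No group had enough arrays for a check of single outlying arrays.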

How the results depend on the processing

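Among the settings tried, fitting all 17 arrays together moved most. The members called fell to 0 for dnBrg1, dnChd4, dnSnf2h, dnBrg1 minus dnChd4 and both repressed comparisons with dnBrg1, and to 1 (Aldh1l2) for the mean of the 3 lines. Of all 19938 genes, 32, 1, 1 and 19 were then still called lower in the first 4 of these, 365 and 364 in repressed dnBrg1 minus dnChd4 and minus dnSnf2h, and 659 in the mean. Adjusted p-values of the single-line changes were then 0.303 to 0.991, with the same differences and a spread that includes the control arrays. With 15 arrays 9 were called in the control line, 8, 1 and 1 in dnBrg1, dnChd4 and dnSnf2h minus control, and 2 in dnBrg1 minus dnSnf2h. That last comparison gave 1 with the replicate block, 3 with trended robust eBayes, 2 without dim genes and 1 with quantile normalization. All probe sets gave 0 for dnBrg1 minus dnChd4, and quantile normalization gave 5 for repressed dnBrg1 minus dnSnf2h. The replicate block gave 6, 9 and 8 calls in dnBrg1, dnChd4 and dnSnf2h, where Phgdh was lost. Same-numbered samples are not known to share an origin.

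Leaving out 1 array gave 4 to 6 calls in dnBrg1, 8 to 9 in dnChd4 and in dnSnf2h, and 9 to 9 in the mean. It gave 0 to 2 for dnBrg1 minus dnChd4, 0 to 3 for dnBrg1 minus dnSnf2h, 3 to 6 and 2 to 4 for repressed dnBrg1 minus dnChd4 and minus dnSnf2h, and 0 to 0 for control and the rest. Over all genes, lower calls ran from 560 (without induced replicate 2; 608 without induced replicate 1) to 1527 in dnBrg1, where 1241 were called with all 12 arrays. They ran from 683 (without repressed replicate 2; 740 and 827 without induced replicates 1 and 2) to 1639 in dnChd4, against 1360, and from 870 (without induced replicate 1) to 2439 in dnSnf2h, against 1662. Without dnSnf2h repressed replicate 1, dnChd4 minus dnSnf2h had 72 genes lower and 103 higher, against 1 and 25. Signs turned for Psph in dnBrg1 (0.053 with median centring; -0.059 to 0.026 with 1 array left out). In the control line Psph was -0.77 with 15 arrays and -0.011 with quantile normalization, and with the block Phgdh was 0.024, Psat1 0.012, Mthfd2 0.011, Mthfd1l 0.036 and Aldh1l2 0.074. With 1 array left out the control change ran from -0.88 to 0.57 for Phgdh, -1.30 to 0.71 for Psat1, -0.46 to 0.47 for Psph, -0.89 to 0.33 for Shmt1, -1.22 to 0.61 for Shmt2, -0.69 to 0.28 for Mthfd1, -1.34 to 0.78 for Mthfd2, -1.13 to 0.67 for Mthfd1l and -1.56 to 0.85 for Aldh1l2. Quantile normalization moved no median over all genes by more than 0.042, and median centring by no more than 0.069. Median centring gave 1955 genes higher and 769 lower in dnBrg1 (1598 and 1241 without it), 924 and 1572 in repressed dnBrg1 minus dnSnf2h (1517 and 1340), and 65 and 41 in dnBrg1 minus dnSnf2h (58 and 68). The causes were not tested beyond what each setting changes. Having 2 or 3 arrays a group limits every value.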
